A study of Mus musculus with 8 samples.

Results

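Genes of cholesterol and fatty acid synthesis were examined in mouse embryonic stem cell lines derived by nuclear transfer. The set holds 29 genes chosen by name, against 16593 genes named on the array: 4 regulators and carriers of sterols, 7 enzymes of the mevalonate arm, 11 of the sterol arm and 7 of fatty acid synthesis. The platform annotation used here gives 34 of the array's 25697 probes to 26 of these genes, with Msmo1 listed under its current symbol. No probe is named for Acat2, Mvk or Fdft1, and the probe of Idi1 was above background on tNT line 2 alone, so 25 genes were measured, among 8816 genes or unnamed probes tested. The samples were 6 tNT lines, labelled tetraploid and made by tetraploid nuclear transfer, with p17, p19, p25, p29, p18 and p25 given for lines 1 to 6 and read here as passage 17, 19, 25, 29, 18 and 25, and 2 NT lines, labelled not tetraploid and made by nuclear transfer. No passage number is given for the NT lines. All 8 are labelled mixed strain and double sedimentation. Nuclear transfer puts a somatic nucleus into an egg without its own nucleus, and the series title speaks of a pair of somatic nuclei in the same egg cytoplasm. Each line was hybridised once, and no label tells of independent cultures of a line, so the p-values below rest on differences from line to line.

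Cholesterol is built from acetyl-CoA, which the mevalonate arm turns into the isoprenoid farnesyl diphosphate and the sterol arm into lanosterol and then cholesterol. Fatty acid synthesis draws on the same precursor. The transcription factors SREBP1 and SREBP2, encoded by Srebf1 and Srebf2, are held at the endoplasmic reticulum by Scap and Insig proteins while sterols are plentiful. When sterols are scarce they are released, enter the nucleus and switch on most genes of the pathway at short promoter motifs called sterol regulatory elements, often together with the factor NF-Y, which binds CCAAT boxes.

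All values are normalized bead intensities on the log2 scale. A probe was above background where its detection p was under 0.01. A gene counted as measured where this held on 2 arrays or more, and its brightest such probe stands for it. Of the 25 genes, 21 were above background on all 8 arrays, and none was measured through 1 group alone. Between 10449 and 10969 probes were above background on an array. All 10 embryonic stem cell markers examined, Pou5f1, Sox2 and Nanog among them, were above background on all 8 arrays. Of 16 fibroblast markers 10 were measured. Col1a1, Col6a1, Thy1, Dcn, Fbln2, Twist1, Vim, Lox and Serpinh1 were above background on all 8 arrays, and Lum on fewer. Col1a2, Col3a1, Col5a2, Postn and S100a4 had a probe but did not reach background on enough arrays. Of 12 endoderm markers 4 were measured, Gata6, Sox7, Dab2 and Amn. Afp, Apoa1, Foxa2, Gata4, Lamb1, Sox17 and Ttr had a probe but did not reach background on enough arrays.

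The promoter windows of Msmo1 and Hmgcs1 are shown because both enzymes had groups of lines that did not overlap, in opposite directions. The windows run from 250 bases before to 50 after the annotated start and come from RefSeq, build GRCm38.p6. They lie at chr8:64733529-64733828 on the minus strand for Msmo1 and at chr13:119690101-119690400 on the plus strand for Hmgcs1. Each is written 5′ to 3′, and capitals mark matches, on either strand, to the CCAAT box (CCAAT, or ATTGG on the other strand) and to a core of the sterol regulatory element (TCACNCCAC).
Msmo1: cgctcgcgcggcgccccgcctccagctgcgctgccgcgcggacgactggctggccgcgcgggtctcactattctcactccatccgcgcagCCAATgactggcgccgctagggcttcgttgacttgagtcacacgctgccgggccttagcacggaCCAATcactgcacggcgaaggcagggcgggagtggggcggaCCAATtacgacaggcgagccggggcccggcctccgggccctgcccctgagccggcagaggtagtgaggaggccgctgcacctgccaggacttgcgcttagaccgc
Hmgcs1: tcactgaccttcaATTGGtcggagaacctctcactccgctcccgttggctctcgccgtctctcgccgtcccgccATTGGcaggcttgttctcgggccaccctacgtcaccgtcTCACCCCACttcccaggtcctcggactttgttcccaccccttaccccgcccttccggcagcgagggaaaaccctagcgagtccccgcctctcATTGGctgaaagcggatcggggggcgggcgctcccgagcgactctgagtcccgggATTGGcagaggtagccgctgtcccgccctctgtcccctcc
The Msmo1 window holds 3 CCAAT boxes and no match to this sterol element core, and the Hmgcs1 window holds 4 CCAAT boxes and 1 match. None of the capital stretches overlap. RefSeq windows were matched for 22 of the 29 genes, 27 windows in all, and not for Stard4, Fdps, Fdft1, Sqle, Scd1, Scd2 and Fads1. The CCAAT box was present in 19 of the 27 windows (70.4%), against 37.4% of all 32851 windows of the same length. The sterol element core was matched in 1 of the 27 (3.70%), against 1.24% of all windows. The E-box CACGTG, which reads the same on both strands, was present in 4 of the 27 (14.8%), in windows of Insig1, Hsd17b7, Sc5d and Dhcr7, against 7.15% of all windows. These are matches of letters in a fixed window and were not tested. Other forms of the sterol element, and sequence outside the windows, were not searched.

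The main comparison asks how the tNT lines differ from the NT lines. Msmo1, the methylsterol oxidase that starts removal of the methyl groups at carbon 4 of sterol intermediates, rose in tNT lines and was the 1 member to pass. Most other members had slightly lower means in tNT lines: the mean was lower for 20 of the 25, against 49.1% of all genes tested. The median log2 difference of the 25 was -0.17, against 0.01 for all genes tested. Of all genes, 1.86% passed an adjusted p of 0.05 (0.896% higher and 0.964% lower in tNT lines), and no member passed in the lower direction. At an unadjusted p under 0.05, 1 member was higher and 5 were lower, against 9.36% and 8.60% of all genes. All 6 tNT values lay above both NT values for 2 members and below both for 5, against 11.3% and 10.4% of all genes.

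**Figure D1:**
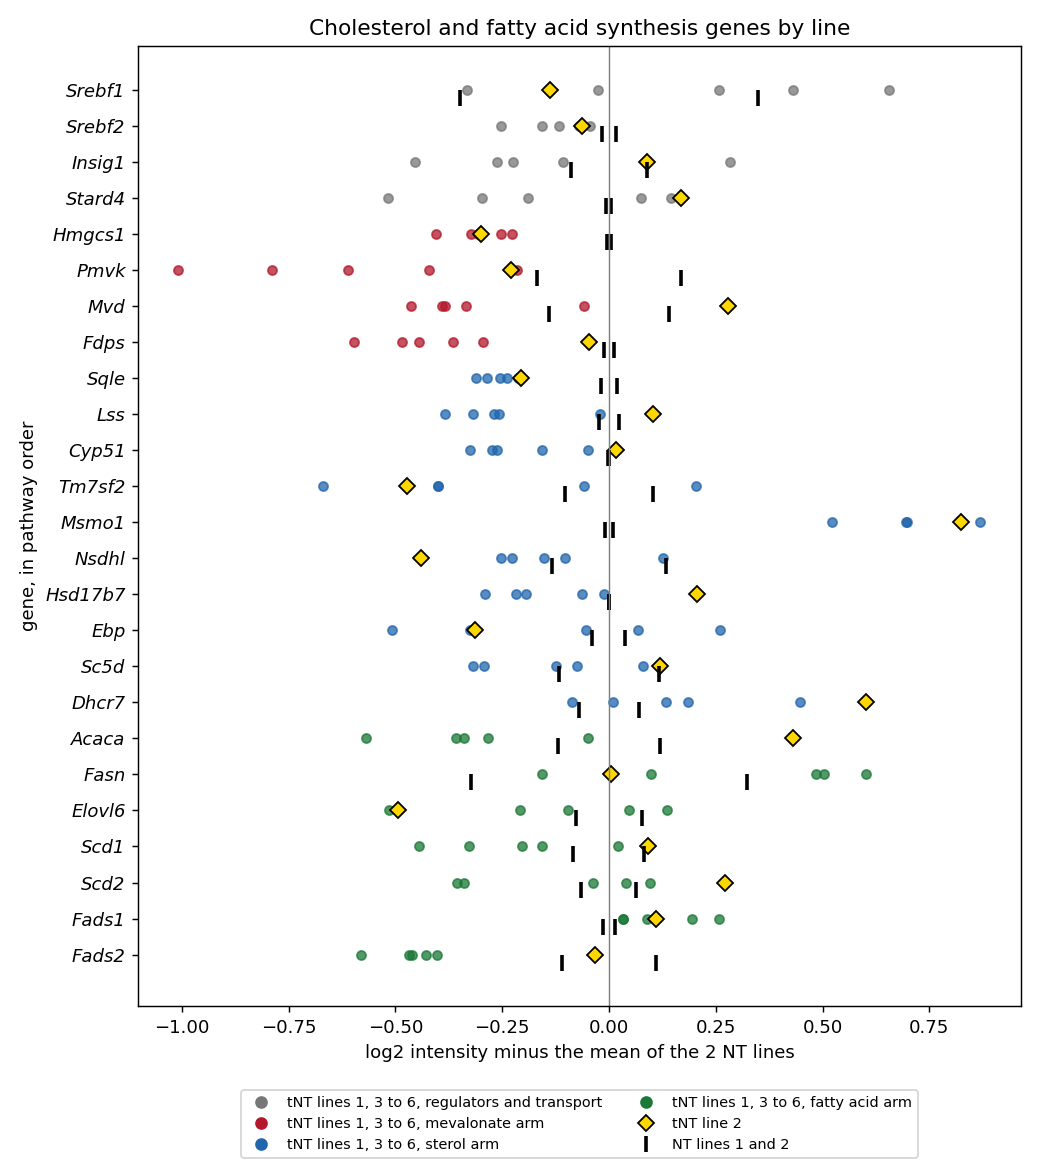
Log2 intensity of the 25 measured genes in each line, minus the mean of the 2 NT lines (x axis), with genes in pathway order down the page. Circles are tNT lines 1 and 3 to 6, coloured by pathway arm, diamonds are tNT line 2 and black ticks are the NT lines. Msmo1 is the gene whose 6 tNT values stand farthest above both NT values.

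In the sterol arm, Msmo1 read 10.15, 10.45, 10.50, 10.45, 10.33 and 10.33 on the log2 scale in tNT lines 1 to 6, against 9.62 and 9.64 in NT lines 1 and 2. Msmo1 is read by 1 probe, and every tNT value was above both NT values. The tNT mean was 10.37 ± 0.13 (SD, n = 6) and the NT mean 9.63 ± 0.01 (SD, n = 2), a log2 difference of 0.74 (SE 0.12) or 1.67-fold (limma, adjusted p = 0.0236). The call needed both NT lines: the adjusted p was 0.267 without NT line 1 and 0.272 without NT line 2, with log2 differences of 0.73 and 0.75. Msmo1 lies on chromosome 8. The 437 measured genes of that chromosome had a median deviation of -0.01, 0.15, 0.01, 0.05, -0.03 and -0.04 in tNT lines 1 to 6. In the NT lines it was -0.07 and -0.03. The part of the chromosome in the Msmo1 values was not tested. Nsdhl and Hsd17b7, the dehydrogenase and ketoreductase that act with Msmo1 in the same demethylation, had log2 differences of -0.17 (adjusted p = 0.607) and -0.10 (adjusted p = 0.787). Nsdhl is X-linked and is read by 4 probes that disagree. The probe used and 2 others had log2 differences of -0.17, -0.26 and -0.32, while the remaining probe was above background on all 6 tNT arrays and on neither NT array. The tNT mean of that probe was 5.75 and the NT mean 5.11, a log2 difference of 0.64. With the NT values raised to the lowest value above background on their arrays, the tNT mean was still 1.32-fold higher. With every probe tested on its own, this dim probe missed the threshold (limma, adjusted p = 0.0762).

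Sqle, squalene epoxidase, the first oxygen-requiring enzyme of the arm, had values of 10.99, 11.10, 11.05, 11.06, 11.02 and 11.09 in tNT lines 1 to 6, against 11.28 and 11.32 in the NT lines. The groups did not overlap, the log2 difference was -0.25 (SE 0.10), and its adjusted p of 0.229 missed the threshold. Its other probe ran from 8.24 to 8.74 in tNT lines, against 8.81 and 9.08 in NT lines, again without overlap, with a log2 difference of -0.44. Lss, which closes squalene epoxide into lanosterol, averaged 8.93 ± 0.19 in tNT lines and 9.12 ± 0.03 in NT lines (SD, n = 6 and 2). Cyp51, the lanosterol demethylase, averaged 9.42 ± 0.14 in tNT lines and 9.60 ± 0.0016 in NT lines (SD, n = 6 and 2). In both genes the groups overlapped and the difference, -0.19 and -0.18 on the log2 scale, had an SE of 0.15 and 0.13 and missed the threshold (adjusted p = 0.546 and 0.518). Dhcr7, the reductase that makes cholesterol from 7-dehydrocholesterol, was the other gene of this arm with a higher mean in tNT lines, by 0.22 on the log2 scale (adjusted p = 0.590). Ebp, the sterol isomerase, and Sc5d, the desaturase after it, had log2 differences of -0.15 and -0.10 (adjusted p = 0.758 and 0.782). Tm7sf2, a sterol reductase, had -0.30 (adjusted p = 0.510) but was above background on only 1 tNT and 1 NT array. Sc5d was above background on 4 tNT arrays and both NT arrays. The X-linked Ebp read 9.41, 9.15, 9.13, 8.95, 9.72 and 9.53 in tNT lines 1 to 6, against 9.50 and 9.42 in the NT lines. The median deviation of the 274 measured X-linked genes was 0.21, 0.0025, -0.14, -0.14, 0.13 and 0.15 in tNT lines 1 to 6, against -0.05 and -0.10 in the NT lines. The probe used for Nsdhl, also X-linked, read 7.62, 7.06, 7.35, 7.40, 7.27 and 7.25 in tNT lines 1 to 6. In the NT lines it read 7.63 and 7.36. The part of the chromosome in the Ebp and Nsdhl values was not tested.

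The 4 measured genes of the mevalonate arm all averaged lower in tNT lines. Their median log2 difference was -0.34, and none passed. Hmgcs1, the synthase that makes HMG-CoA, had values of 12.80, 12.80, 12.85, 12.88, 12.70 and 12.78 in tNT lines 1 to 6, against 13.11 and 13.10 in the NT lines. The tNT values spanned less than their distance to the NT values, and the log2 difference was -0.30 (SE 0.11, adjusted p = 0.166). Fdps, farnesyl diphosphate synthase, had values of 11.73, 12.28, 11.84, 11.88, 12.03 and 11.96 in tNT lines, against 12.33 and 12.31 in NT lines. Line 2 lay close to the NT lines, with no overlap, and the log2 difference was -0.37 (SE 0.15, adjusted p = 0.223). Pmvk, phosphomevalonate kinase, had values of 7.48, 8.04, 7.26, 8.05, 7.84 and 7.66 in tNT lines, against 8.44 and 8.10 in NT lines, a log2 difference of -0.55 (SE 0.22, adjusted p = 0.226). Its groups were separated by a narrow gap between tNT line 4 and NT line 2. The lowest Pmvk value was that of tNT line 3. There the 386 measured genes of chromosome 3, which carries Pmvk, Fdps and Elovl6, had a median deviation of -0.22. The part of the chromosome in the Pmvk value was not tested. Mvd, mevalonate diphosphate decarboxylase, had a log2 difference of -0.23 (adjusted p = 0.605), and its groups overlapped through tNT lines 2 and 3. With each line left out in turn this difference ranged from -0.37 to -0.09.

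**Figure D2:**
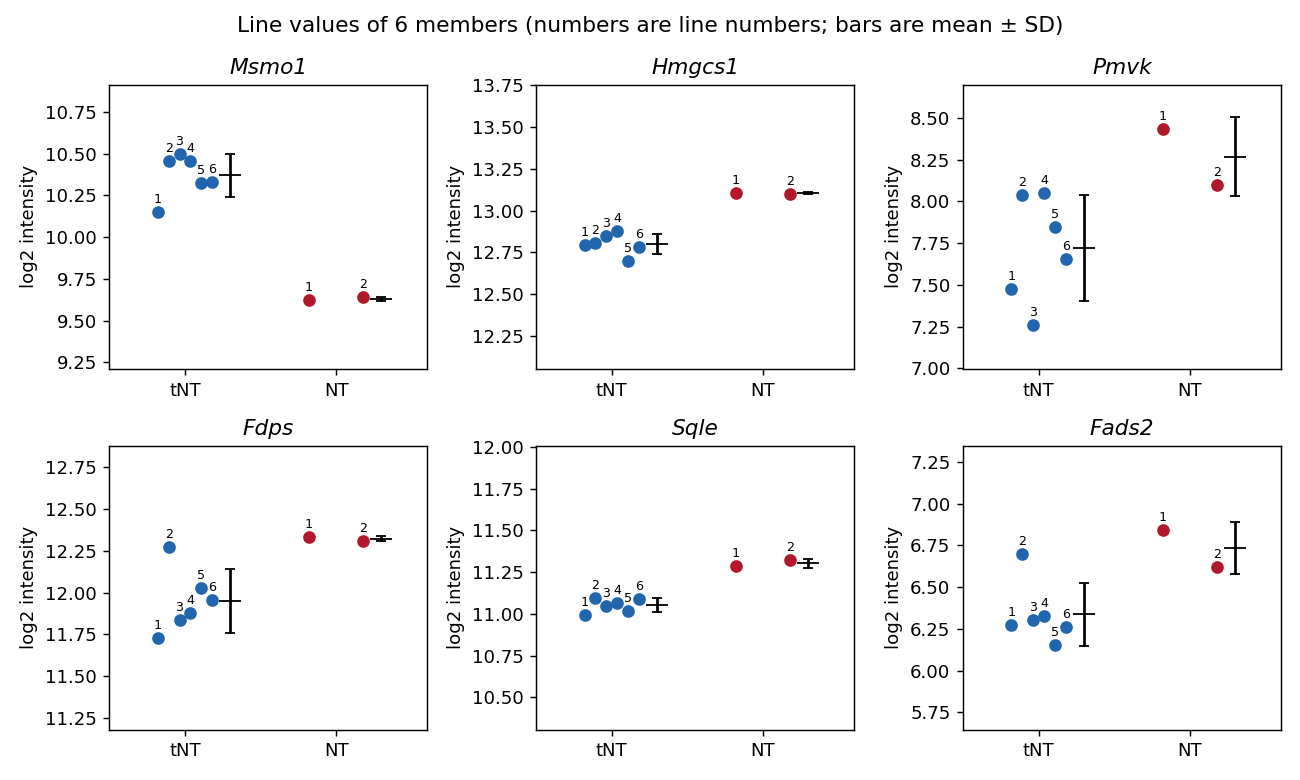
Log2 intensity (y axis, the same span of 1.7 in every panel) of 6 genes in the 6 tNT lines (left, blue) and the 2 NT lines (right, red), each point labelled by its line number, with the mean and SD at the side. Msmo1 is higher in tNT lines, Hmgcs1, Pmvk, Fdps and Sqle are lower without overlap, and Fads2 overlaps through tNT line 2.

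Among the regulators, Srebf2, the factor that mainly drives cholesterol genes, had values of 9.01 to 9.22 in tNT lines (median 9.17), against 9.25 and 9.28 in NT lines. The groups did not overlap, and the log2 difference was -0.12 (SE 0.11, adjusted p = 0.624). Insig1, the sterol-sensitive anchor that is itself a target of SREBP, ran from 6.90 to 7.64 in tNT lines, against 7.27 and 7.45 in NT lines, a log2 difference of -0.11 (adjusted p = 0.809). Its other probes above background gave -0.20 and 0.05, and a further one was above background on no array. Stard4, a cytosolic sterol carrier, ran from 8.61 to 9.30 in tNT lines, against 9.13 and 9.14 in NT lines (log2 difference -0.10, adjusted p = 0.830). Srebf1, the factor that mainly drives fatty acid genes, was above background on 3 tNT arrays and 1 NT array and differed by 0.14 (SE 0.27, adjusted p = 0.836). A second Srebf1 probe was above background on no array.

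Of the 7 fatty acid genes, 5 averaged lower in tNT lines and none passed. The median log2 difference was -0.17. Fads2, the delta-6 desaturase of polyunsaturated fatty acids, had values of 6.27, 6.70, 6.30, 6.33, 6.15 and 6.26 in tNT lines 1 to 6, against 6.84 and 6.62 in the NT lines. Line 2 lay between the NT lines and the other 5 below both, and the log2 difference was -0.40 (SE 0.15, adjusted p = 0.212). Without tNT line 2 it was -0.47 and passed (adjusted p = 0.0406), in a fit where 582 of 8816 passed, against 164 with all lines. Fads1, the delta-5 desaturase that follows it, ran from 11.26 to 11.49 in tNT lines (median 11.33), against 11.21 and 11.24 in NT lines. These groups did not overlap either, in the opposite direction to the 5 tNT lines of Fads2, but the log2 difference of 0.12 (SE 0.11) did not pass (adjusted p = 0.628). Scd1 and Scd2, desaturases that make monounsaturated fatty acids, had log2 differences of -0.17 and -0.05 (adjusted p = 0.624 and 0.911). Acaca, the acetyl-CoA carboxylase that commits carbon to fatty acids, and Elovl6, an elongase, had -0.20 and -0.19 (adjusted p = 0.719 and 0.658). Fasn, the fatty acid synthase, was above background on 3 tNT arrays and 1 NT array and differed by 0.26 (adjusted p = 0.631).

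No gene of the wider synthesis lists passed. Of 14 further sterol genes, 5 were measured, with a median log2 difference of 0.05. They include Scap, the escort of SREBP (0.11, adjusted p = 0.759), Insig2 (0.01, adjusted p = 0.978), the SREBP protease Mbtps1 (-0.20, adjusted p = 0.465) and the sterol-regulated membrane protein Tmem97 (0.16, adjusted p = 0.578). Among the other Mbtps1 probes 2 had log2 differences of 0.21 and 0.13, opposite in sign to the probe used. A second Insig2 probe, matched to another transcript accession, read 6.61, 6.28, 6.49, 7.55, 7.61 and 7.47 in tNT lines 1 to 6, against 6.05 and 6.25 in the NT lines. All 6 tNT values lay above both NT values, with lines 4 to 6 highest, and the log2 difference of 0.85 missed the threshold with every probe tested on its own (limma, adjusted p = 0.270). The Insig2 probes thus disagreed in size. Of 20 further fatty acid genes, 16 were measured, with a median of -0.08. Acly, which makes cytosolic acetyl-CoA from citrate, and Acss2, which makes it from acetate, had log2 differences of -0.07 and -0.27 (adjusted p = 0.781 and 0.637). Acsl5, an acyl-CoA synthetase, ran from 7.80 to 8.73 in tNT lines, against 9.12 and 9.19 in NT lines, a log2 difference of -0.79 (SE 0.27, adjusted p = 0.160), and Hacd3, a dehydratase of fatty acid elongation, had 0.21 (adjusted p = 0.395).

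Lipa, the lysosomal acid lipase that frees cholesterol from its esters, rose in tNT lines and was the 1 gene to pass among the 5 measured of 15 genes of sterol efflux, storage and uptake. It had values of 6.33, 6.17, 6.46, 6.36, 6.51 and 6.33 in tNT lines 1 to 6, against 5.79 and 5.77 in the NT lines, without overlap. The log2 difference was 0.58 (SE 0.12; limma, adjusted p = 0.0462). This call lay near the threshold and was lost in 12 alternatives, among them the removal of any line except tNT line 2, with adjusted p between 0.0689 and 0.395 in those removals. None of the 13 measured genes of fatty acid oxidation passed, of 18 listed, with a median of -0.09. Among them Acaa2, a thiolase of mitochondrial oxidation, had -0.77 (SE 0.20, adjusted p = 0.0892) and passed without tNT line 3 (-0.88, adjusted p = 0.0227) and with array weights (-0.82). Etfa, which passes electrons from that pathway to the respiratory chain, had 0.30 (adjusted p = 0.234). Of 14 genes that use isoprenoids 11 were measured and none passed, with a median of -0.07. Nus1, of dolichol synthesis, had -0.36 (adjusted p = 0.277) and Coq2, of ubiquinone synthesis, -0.25 (adjusted p = 0.424).

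The second comparison sets tNT line 2 against the other 5 tNT lines. It is 1 array against 5 and was singled out with earlier results known, so it is described without a test. Line 2 had higher values of most synthesis genes. It was the highest of the 6 tNT lines for 13 of the 25 members and the lowest for 1, against 26.8% and 26.2% of all genes tested. The median difference of the 25 members was 0.24 on the log2 scale, against 0.00 for all genes. Past the range of the other lines by at least 1.5-fold, counted from their mean, 2 members were higher and none lower, against 6.56% and 8.14% of all genes. The median deviation of the members was highest of the 8 lines in line 2 also with the authors' values (0.20), with no background correction (0.12), with median scaling (0.26) and over the genes detected on all 8 arrays (0.22).

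Acaca had 10.55 in line 2, against 9.56 to 10.07 in the other 5 lines, a difference of 0.75 or 1.68-fold. Mvd had 9.22 in line 2, against 8.48 to 8.88 in the other 5, a difference of 0.61 or 1.52-fold. These were the genes past 1.5-fold. Mvd lies on chromosome 8, whose 437 measured genes had a median deviation of 0.15 in line 2, and its part in that value was not tested. Dhcr7 had 8.69, against 8.00 to 8.54, and Fads2, Scd2, Fdps, Hsd17b7, Lss, Stard4, Scd1, Sc5d, Cyp51 and Sqle were also highest in line 2, by 0.06 to 0.44 over the mean of the other 5. Nsdhl was lowest in line 2, at 7.06 against 7.25 to 7.62. Elovl6, Srebf1, Fasn, Tm7sf2, Ebp and Fads1 were below the mean of the other lines and inside their range. Hmgcs1 in line 2 differed by 0.0046 from the mean of the other 5.

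**Figure D3:**
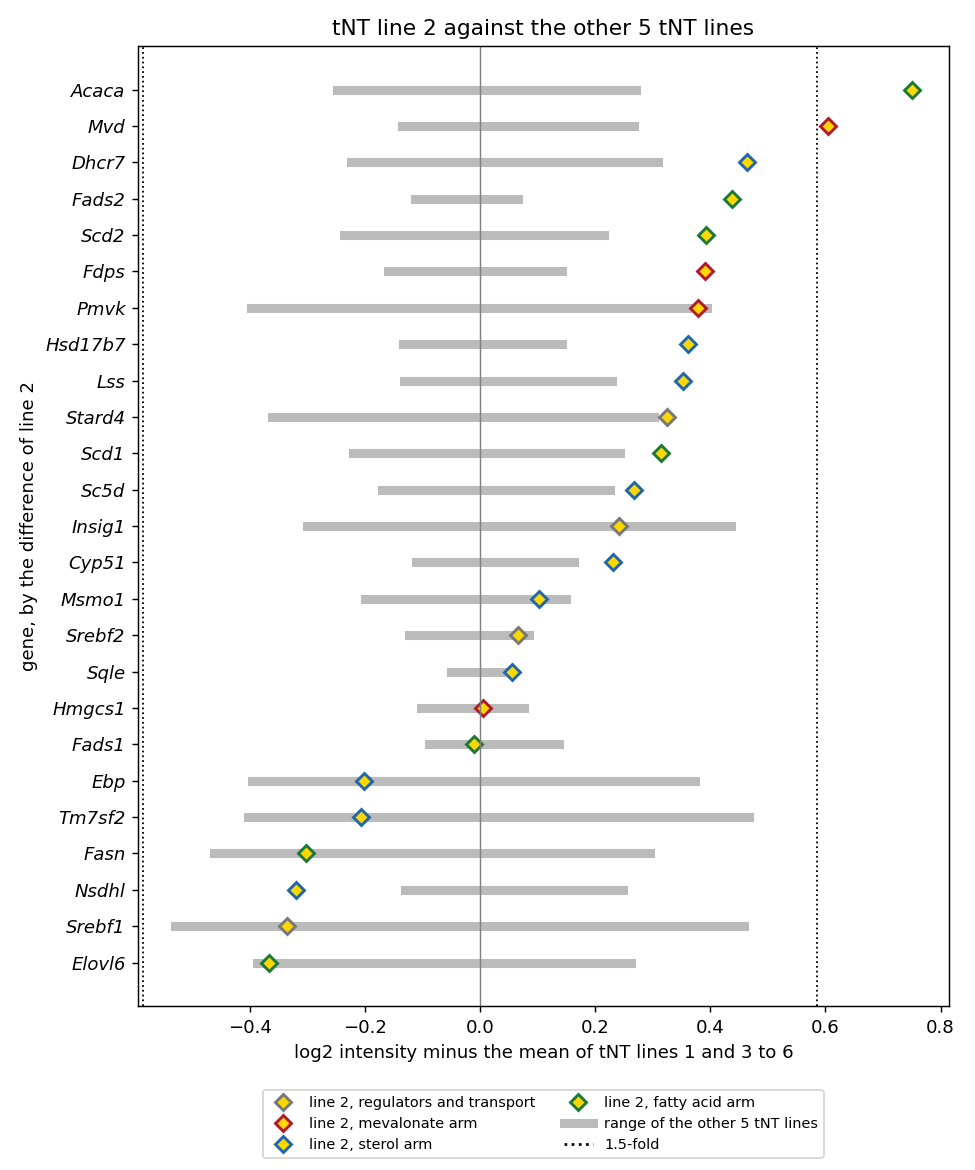
Difference of tNT line 2 (diamonds, outlined by pathway arm) from the mean of the other 5 tNT lines on the log2 scale (x axis), with the range of those 5 lines as grey bars and dotted lines at 1.5-fold. Acaca and Mvd lie past 1.5-fold, and 13 of the 25 diamonds lie above their bar.

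Set against the NT lines, line 2 had 9 members below both NT values and 12 above both. The other 5 tNT lines had 15 to 17 members below both and 4 to 6 above both. Over all genes tested, 37.6% to 40.7% were below and 40.1% to 42.4% above in the 6 lines. The median deviation of the 25 members from their mean over 8 lines was 0.18 in line 2 and -0.07, -0.07, -0.05, -0.10 and -0.09 in tNT lines 1, 3, 4, 5 and 6, against 0.13 and 0.10 in the NT lines. By this measure line 2 lay above both NT lines and every other tNT line below both. The mevalonate arm stood at 0.21 in line 2 and -0.24 to -0.08 in the other tNT lines, against 0.26 and 0.25 in the NT lines. The sterol arm stood at 0.17 in line 2 and -0.10 to 0.01 in the others, and the fatty acid arm at 0.22 and -0.16 to 0.05. The regulators did not follow this order: they stood at 0.10 in line 2, below 0.19 in tNT line 1, and at -0.24 to -0.06 in tNT lines 3 to 6, against 0.03 and 0.14 in the NT lines. Without line 2, the tNT values lay below both NT values for 8 members, Cyp51, Hsd17b7 and Fads2 joining Hmgcs1, Pmvk, Fdps, Sqle and Srebf2, against 14.7% of all genes, and above both for Msmo1 and Fads1, against 16.4%.

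Line 2 was not high in every related list. For the 5 further sterol genes measured the median difference from the other tNT lines was 0.15. Line 2 was highest for 2 of them and lowest for none. The 16 further fatty acid genes measured had 0.07, with 7 highest and 3 lowest in line 2. The 11 measured genes that use isoprenoids had 0.04, with 3 highest and 3 lowest. The 5 measured genes of sterol efflux, storage and uptake had a median difference from the other tNT lines of -0.23, with 3 lowest and none highest in line 2. The 13 genes of fatty acid oxidation had -0.18, with 5 lowest and 1 highest. Over all genes tested, line 2 was the lowest tNT line for 26.2% and the highest for 26.8%. Of the 10 embryonic stem cell markers, 3 were highest and 2 lowest in line 2 among the tNT lines. Esrrb (12.85, against 13.40 to 13.69 in the other 5) and Nanog (11.97, against 12.42 to 12.64) were lowest. Pou5f1 (12.66, against 12.08 to 12.42), Utf1 and Dppa4 were highest. Fibroblast markers were higher in line 2, where 8 of the 10 measured had their highest tNT value. Their summed intensity on the linear scale was 3927 in line 2 and 2413 to 2972 in the other tNT lines, against 2372 and 2688 in the NT lines. The endoderm markers measured summed to 304.8 in line 2 and 260.5 to 315.7 in the other tNT lines, against 324.2 and 324.3 in the NT lines. Of these 4 markers, Gata6 and Dab2 were highest in line 2 among the tNT lines, 1.88-fold and 1.76-fold above the mean of the other 5. Amn was lowest in line 2 and Sox7 lay within the range of the others. Gata6 was above background on only 2 tNT arrays, so its fold is set against values near background. Fewer cells of a type and less RNA per cell cannot be told apart in such samples, and the part of fibroblast or endoderm RNA in the line 2 values was not tested.

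**Figure D4:**
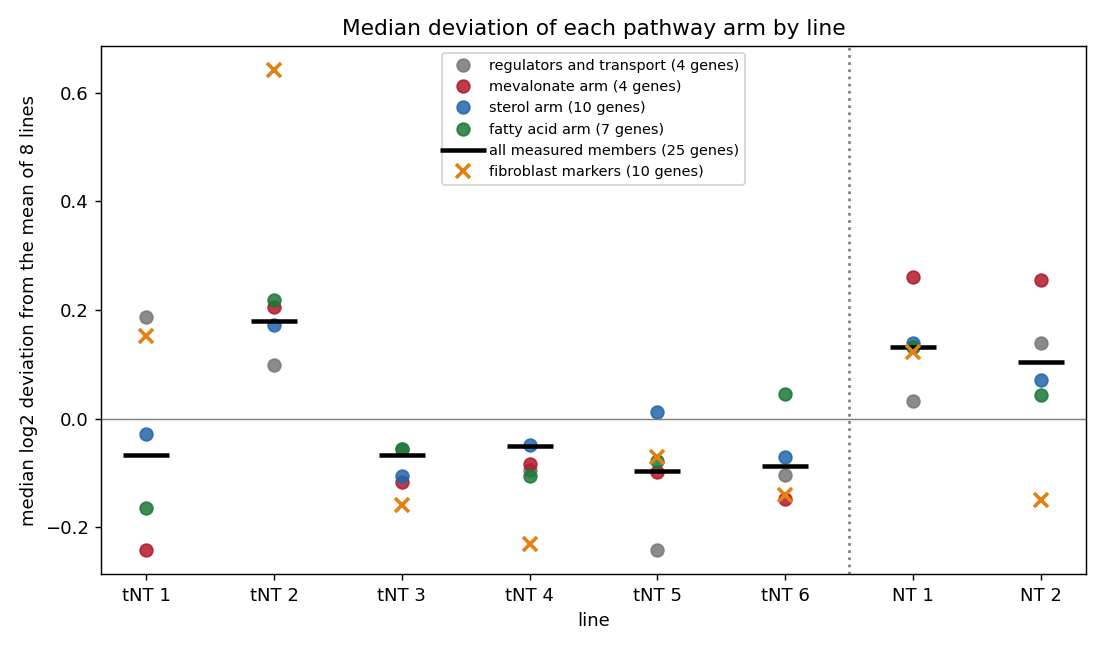
Median deviation, on the log2 scale, of the genes of each pathway arm from their mean over 8 lines (y axis), by line, with tNT lines left and NT lines right of the dotted line. Black bars are the median over all 25 members and crosses the 10 fibroblast markers. The black bar is at 0.18 in tNT line 2 and 0.13 and 0.10 in the NT lines, and below 0 in the other tNT lines.

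Within the 6 tNT lines the members varied about as much as other genes, with a median SD of 0.20 on the log2 scale, against 0.22 for all genes tested. Sqle (0.04), Hmgcs1 (0.06), Srebf2 (0.08) and Fads1 (0.09) varied least. Srebf1 (0.37), Acaca (0.35) and Pmvk (0.32) varied most. Values of tNT lines 4 to 6 lay apart from those of lines 1 to 3 for 4 members, Stard4, Mvd and Hsd17b7 lower and Elovl6 higher, which is 16% of the members, against 22.7% of all genes. Stard4 had 8.61, 8.94 and 8.83 in lines 4 to 6, against 9.28, 9.30 and 9.21 in lines 1 to 3. Elovl6 had 10.73, 10.64 and 10.49 in lines 4 to 6, against 10.38, 10.09 and 10.07 in lines 1 to 3. It lies on chromosome 3. The median deviation of that chromosome was 0.06, 0.01 and 0.04 in lines 4 to 6, against -0.01, 0.06 and -0.22 in lines 1 to 3. The part of the chromosome in the Elovl6 values was not tested. No member passed for a slope on passage over the tNT lines (limma slope, smallest adjusted p = 0.994), as no gene passed in the whole table (0%). The smallest unadjusted p among members in that limma fit was 0.0647, for Srebf1, with a slope of 0.05 log2 units per passage, and 0 members were under 0.05, against 4.44% of all genes.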

How the data were processed

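Total RNA of 8 lines was labelled as biotin cRNA and hybridised to Illumina bead arrays, per the labels' protocols. The deposited table gives a bead intensity per probe and array, linear and not background-subtracted as its values show, with a detection p-value beside each per the file headers. A second deposited table holds the authors' log2 values, with 1 distribution in all columns; its background step is not stated in the labels. BeadStudio 3.2, RMA and lumi are named, with no role or order, in the submitters' processing notes. Intensities were corrected and quantile normalized with neqc (offset 16, limma 3.58.1, R 4.3.3), which removes any difference in total RNA per cell. Symbols come from the platform annotation, updated by gene identifier through RefSeq (23962 of 25697 probes).

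Groups were compared with lmFit and eBayes over 8816 genes or unnamed probes, 2-sided, Benjamini-Hochberg adjusted over all of them, threshold 0.05; passage was a slope over 6 lines. With 6 and 2 arrays, array number sets the precision. The text names all members, genes of the other lists that passed, otherwise the 2 of smallest p per list, and Insig2, Scap, Acly and Acss2. The members and lists were chosen with earlier results of these data known. Folds of low genes are understated by the offset. No 2 arrays were copies (at most 1 equal intensity). The fits were tested on simulated data. Alternatives covered normalization, background, detection filter, probe choice, variance model, array weights, a replicate block and each line left out; the counts of non-overlapping groups without a line were added after seeing the data. Summaries used Python 3.11.15 with pandas 2.3.3, and figures matplotlib 3.10.9.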

Additional observations from a re-analysis of the deposited data

Results flagged for a closer look

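Dixon's ratio of the gap to the range was computed for 39 sets of tNT values, and it singled out an extreme line in 4, line 2 in 3 of these. About 1 in 20 independent sets would be singled out by chance, and these sets share the same 6 arrays. Line 2 had been singled out before, and 1 set is the median of members that are sets themselves. These flags are thus no separate support for line 2. The median deviation of the 25 members was 0.18 in line 2, against -0.10 to -0.05 in the other tNT lines. Fads2 had 6.70 in line 2, against 6.15 to 6.33, and Hacd3 had 10.82 in line 2, against 10.57 to 10.65. Tmem97 had 10.02 in tNT line 1, against 10.27 to 10.41 in the others.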

How the results depend on the processing

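The tNT against NT count of 1 member passing, Msmo1, was 2 with a variance trend and robust estimation, 5 with array weights and 0 with the replicate block, and ranged from 0 to 2 over the lines left out. Over all genes, 164 passed, against 230 with trend and robust estimation, 1381 with array weights, 157 with the block, 582 without tNT line 2, 6 without NT line 1 and 7 without NT line 2. With array weights Hmgcs1, Pmvk, Fdps and Fads2 joined Msmo1. The log2 difference of Msmo1 stayed between 0.71 and 0.78 with each line left out. Under the replicate block it was 0.67 and did not pass (adjusted p = 0.141). Lines 1 and 2 of each group share only a number: their deviations correlated by 0.04 and 0.0002. As the other tNT lines have no NT line of their number, the block fit compares lines 1 and 2 of each group alone. The median over members ranged from -0.18 to -0.12 with each line left out, was -0.18 with the authors' values, -0.11 with no background correction, -0.13 with median scaling and -0.09 under the replicate block, where 16 of 25 means were lower. For line 2, the 2 members past 1.5-fold became 1 with no background correction and 0 at 2-fold. Signs turned, with none past the threshold, under the replicate block for Insig1 (0.19), Stard4 (0.16), Hsd17b7 (0.072) and Acaca (0.045). Ranges over the lines left out crossed 0 for Srebf1 (-0.21 to 0.49), Sc5d (-0.22 to 0.015), Fasn (-0.067 to 0.58), Scd2 (-0.12 to 0.010) and Insig2 (-0.085 to 0.11). Insig2 was -0.027 with array weights, and as the mean of probes Insig2 was 0.43 (adjusted p = 0.207) and Mbtps1 0.047. Without a change of sign, leaving out lines moved uncalled members by over 1.5 times: Mvd (-0.37 to -0.09), Nsdhl (-0.31 to -0.04), Acaca (-0.32 to -0.08), Insig1 (-0.20 to -0.02), Stard4 (-0.16 to -0.02), Scd1 (-0.25 to -0.09), Ebp (-0.23 to -0.07), Hsd17b7 (-0.16 to -0.06), Elovl6 (-0.27 to -0.11), Tm7sf2 (-0.40 to -0.20) and Dhcr7 (0.14 to 0.29). The cause of the moves with lines left out was not tested.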
